A study of Saccharomyces cerevisiae with 21 samples.

Results

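The 8 genes described here encode mitochondrial enzymes of the tricarboxylic acid cycle after isocitrate in Saccharomyces cerevisiae, with the separate enzyme Idp1 and without succinate dehydrogenase. They were taken by systematic name from the 7126 gene features of every deposited table: KGD1 (YIL125W), KGD2 (YDR148C), LPD1 (YFL018C), LSC1 (YOR142W), LSC2 (YGR244C), FUM1 (YPL262W), MDH1 (YKL085W) and IDP1 (YDL066W). All 8 were present in all 21 libraries, with 467 to 4781 counts per library, and all 8 passed the filter on low counts.

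The study sequenced polyadenylated RNA from biofilms of strain Sigma1278B, a background in which yeast can grow as filaments. Each biofilm was harvested after 24 h on agar with galactose as the sugar, after a preculture on glucose. There were 7 groups of 3 libraries: the wild type with a wild-type biofilm, a dig1 mutant whose label is hyperfilamentous, and 5 mutants whose label is hypofilamentous (rtg3, ras2, spt8, ste12 and rim101-531). All 6 mutants share the strain, medium and harvest time with the wild type. The labels give a mutant by its gene or allele name and do not say how an allele was made or how many clones were used. Nor do they state that the 3 libraries in a group are from independent biofilms. The p-values hence cover the spread among these libraries alone, which may be technical.

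The alpha-ketoglutarate dehydrogenase complex, made of Kgd1, Kgd2 and the lipoamide dehydrogenase Lpd1, converts alpha-ketoglutarate to succinyl-CoA, and succinyl-CoA ligase, a dimer of Lsc1 and Lsc2, releases succinate from it. Succinate dehydrogenase, fumarase (Fum1) and malate dehydrogenase (Mdh1) then return the carbon to oxaloacetate, while Idp1 is a separate mitochondrial enzyme that makes alpha-ketoglutarate from isocitrate with NADP. In yeast with impaired respiration, the transcription factors Rtg1 and Rtg3 are known to maintain expression of the enzymes before this stretch (CIT1, ACO1, IDH1 and IDH2), whereas the later genes have been placed outside the Rtg pathway and under the Hap2/3/4/5 complex, an activator of respiratory genes. The rtg3 libraries therefore allow the early and the late stretch of the cycle to be compared in the same biofilms.

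The promoter windows of 4 of the genes are printed, and they hold different numbers of matches to the 5-base motifs attributed to these regulators. Each window runs from 350 to 51 bases upstream of the start codon in the RefSeq sequence of build R64 and reads 5′ to 3′ on the coding strand. Capitals mark CCAAT or its complement ATTGG, the core bound by the Hap complex, and GTCAC or its complement GTGAC, the core of the site bound by Rtg1 with Rtg3. The windows lie at chrIX:122339-122638 on the plus strand for KGD1, chrIV:755117-755416 on the minus strand for KGD2, chrXV:592707-593006 on the plus strand for LSC1 and chrXVI:46986-47285 on the plus strand for FUM1.
KGD1: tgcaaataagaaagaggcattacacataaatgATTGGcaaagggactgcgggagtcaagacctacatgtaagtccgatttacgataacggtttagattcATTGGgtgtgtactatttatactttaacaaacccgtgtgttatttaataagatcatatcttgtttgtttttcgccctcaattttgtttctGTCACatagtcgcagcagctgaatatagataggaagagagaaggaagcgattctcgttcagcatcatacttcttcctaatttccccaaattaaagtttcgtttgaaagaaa
KGD2: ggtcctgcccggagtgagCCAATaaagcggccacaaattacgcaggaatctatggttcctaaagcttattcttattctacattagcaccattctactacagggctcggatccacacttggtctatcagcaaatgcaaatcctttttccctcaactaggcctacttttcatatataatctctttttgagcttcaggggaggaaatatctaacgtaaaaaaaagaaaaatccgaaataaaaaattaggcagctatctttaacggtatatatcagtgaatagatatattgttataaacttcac
LSC1: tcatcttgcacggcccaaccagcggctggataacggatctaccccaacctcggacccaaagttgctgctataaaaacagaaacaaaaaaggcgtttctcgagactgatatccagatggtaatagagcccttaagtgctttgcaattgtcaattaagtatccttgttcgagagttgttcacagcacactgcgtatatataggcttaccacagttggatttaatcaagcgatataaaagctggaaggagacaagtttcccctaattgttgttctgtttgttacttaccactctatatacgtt
FUM1: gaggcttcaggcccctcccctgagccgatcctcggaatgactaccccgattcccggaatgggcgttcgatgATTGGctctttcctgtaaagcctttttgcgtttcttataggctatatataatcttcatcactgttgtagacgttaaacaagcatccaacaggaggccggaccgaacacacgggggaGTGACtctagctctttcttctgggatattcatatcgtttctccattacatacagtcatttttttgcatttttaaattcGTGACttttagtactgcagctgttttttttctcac

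CCAAT was present, on either strand, in the windows of 6 of the 8 genes and in 42.9% of the 6001 windows of the genome. LSC1 and LSC2 lacked it. GTCAC was present in 4 of the 8 (KGD1, LSC2, FUM1 and IDP1) and in 27.5% of all windows, also on either strand, and no match of one motif overlapped a match of the other in the windows of the 8 genes. FUM1 held 2 matches to GTCAC, and LSC1 held neither motif. The windows of all 5 genes of the first steps that are described here held CCAAT, whereas GTCAC was found in 1 of them, CIT3. CIT2, the peroxisomal citrate synthase that is the standard reporter of Rtg activity, held 3 matches to GTCAC. A match of 5 bases is a description of the letters in a window and no measure of binding.

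**Figure D1:**
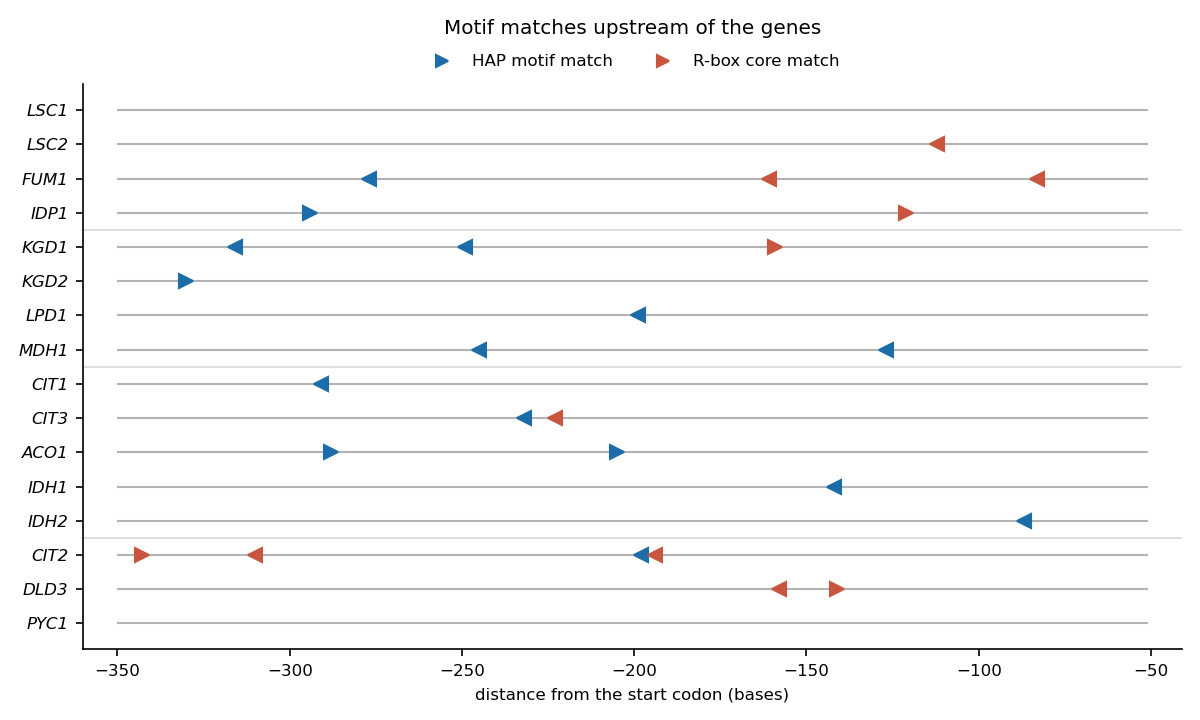
Positions of the motif matches in the promoter windows, with distance upstream of the start codon in bases on the horizontal axis and 1 row per gene; colours separate HAP motif matches (CCAAT) from R-box core matches (GTCAC) and arrowheads point along the strand of the match. KGD1, LSC2, FUM1 and IDP1 are the 4 of 8 genes with an R-box core match.

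The libraries held 2388813 to 3987529 counts on gene features. RTG3 had 119, 115 and 85 counts in the wild type and 0, 0 and 0 in the rtg3 libraries, which checks that label directly, and SPT8 and RAS2 were also at 0 in their mutants. DIG1 had 0, 1 and 0 counts in the dig1 libraries, STE12 had 68, 67 and 52 counts in the ste12 libraries against 159, 211 and 164 in the wild type, so it was lower but present, and RIM101 had 376, 548 and 430 counts in the rim101-531 libraries, which does not check that allele. In 5 of the 7 groups the replicate 2 library was the lowest of its group for at least 6 of the 8 genes: for 8 in dig1, rim101-531 and ras2, for 7 in spt8 and for 6 in ste12. Of all genes tested, that library was the lowest of its group for 48.2% in dig1, 41.5% in rim101-531, 36.5% in ras2, 43.3% in spt8 and 39.2% in ste12. In rtg3 the replicate 3 library was the lowest for 6 of the 8 genes, against 30.7% of all genes. The median deviation of the 8 genes in the replicate 2 library from their group's mean was -0.42 on the log2 scale in dig1, -0.29 in rim101-531, -0.23 in spt8, -0.15 in ras2 and -0.12 in ste12. The wild-type and rtg3 groups did not have a low replicate 2, with median deviations of 0.04 and 0.11 in replicate 2. Whether this difference between libraries contributes to the mutant comparisons was not tested, and the effect of leaving each library out is given beside the calls. These are bulk samples, so fewer cells with a transcript and less of it per cell cannot be told apart.

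Values below are counts per 1000000 (CPM) after TMM scaling of the library totals, given as replicates 1, 2 and 3. On a scale that divides CPM by gene length in kilobases, and so allows different genes to be compared, the wild-type level was highest for MDH1 (894 ± 19.8 CPM per kb, SD, n = 3) and FUM1 (849.7 ± 193), followed by LSC1 (658 ± 30.4), KGD2 (496 ± 13.98), LSC2 (409 ± 8.47), LPD1 (399 ± 24.5) and KGD1 (360.4 ± 4.26). IDP1 was the lowest at 219 ± 11.1 CPM per kb. Reads of Sigma1278B were set against build R64, which is the sequence of another strain, so a level compared between genes also depends on how well each gene's reads match it.

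**Figure D2:**
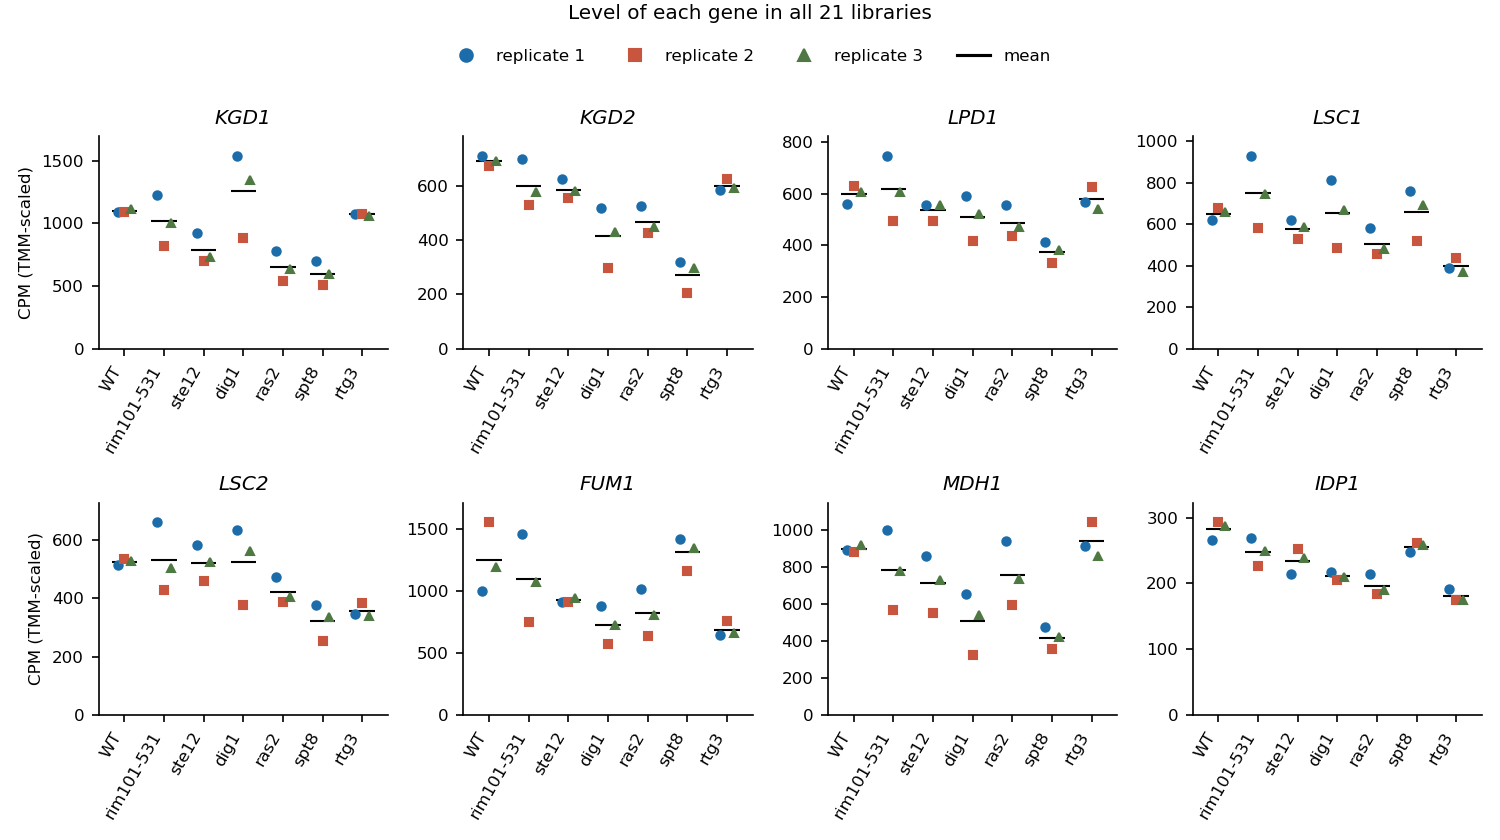
Level of each of the 8 genes in each of the 21 libraries, in CPM after TMM scaling, with 1 panel per gene; symbols mark replicates 1, 2 and 3 and horizontal bars are group means. The 3 spt8 libraries lie below every wild-type library for KGD1, KGD2, LPD1, LSC2, MDH1 and, narrowly, IDP1. The 3 rtg3 libraries do so for LSC1, LSC2, FUM1, IDP1, KGD2 and, narrowly, KGD1. The ras2 libraries do so for KGD1, KGD2, LSC1, LSC2, IDP1 and, narrowly, LPD1. The ste12 libraries do so for KGD1, KGD2, FUM1, MDH1, IDP1 and, narrowly, LPD1, and the dig1 libraries for KGD2, FUM1, MDH1 and IDP1. How many of all genes did so was not counted.

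KGD1 (chromosome IX, 122689 to 125733) encodes the dehydrogenase subunit that decarboxylates alpha-ketoglutarate. It was at 1091, 1088 and 1112 CPM in the wild type and at 1077, 1078 and 1063 in rtg3, and was lowest in spt8 (699.6, 507 and 595) and ras2 (776, 538 and 638). The dig1 libraries spread from 879 to 1539 CPM and enclosed the wild-type values. Ordered by mean, the groups ran dig1, wild type, rtg3, rim101-531, ste12, ras2 and spt8, and the wild type and rtg3 were the only neighbours whose libraries did not overlap, although their means of 1097 ± 12.97 and 1073 ± 8.89 CPM (SD, n = 3) were close.

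KGD2 (chromosome IV, 753675 to 755066) encodes the subunit that carries lipoic acid and transfers the succinyl group. Its level was 710.2, 671 and 691 CPM in the wild type, 319, 204 and 296 in spt8, 517, 296 and 430.2 in dig1, 525, 424 and 448 in ras2 and 583, 625 and 589.8 in rtg3. No library of any of these 4 mutants, nor of ste12 (624, 553 and 580 CPM), reached the lowest wild-type library. In the order of group means, the ste12 libraries, at 586 ± 35.8 CPM, did not overlap with ras2, the next lower group, and all other neighbours overlapped.

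LPD1 (chromosome VI, 101628 to 103127) encodes lipoamide dehydrogenase, which is shared with pyruvate dehydrogenase and the glycine cleavage system. It was at 559, 632 and 605 CPM in the wild type, 569.9, 625 and 539.9 in rtg3 and 411, 331 and 384 in spt8. Only the spt8 group was separated from its neighbour, ras2, in the order of group means.

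LSC1 (chromosome XV, 593057 to 594046) encodes the alpha subunit of succinyl-CoA ligase. It was at 619, 678 and 658 CPM in the wild type, 762, 518 and 693 in spt8 and 391, 439 and 371 in rtg3. The highest rtg3 library lay below the lowest library of every other group, ras2 replicate 2 at 459 CPM being the closest. LSC2 (chromosome VII, 978036 to 979319), the beta subunit, was at 513, 534 and 527 CPM in the wild type, 377, 253 and 337 in spt8 and 345, 383 and 339.7 in rtg3. For LSC2, unlike LSC1, the spt8 libraries fell below the wild type and overlapped with those of rtg3.

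FUM1 (chromosome XVI, 47336 to 48802) encodes the only fumarase of yeast, found in mitochondria and cytosol. Its wild-type libraries were the least alike of the 8 genes, at 997, 1554 and 1188 CPM. It stood at 649, 758 and 660.0 in rtg3, 882, 569 and 727 in dig1, 1016, 638 and 809 in ras2 and 1421, 1163 and 1344 in spt8. The rtg3, dig1 and ste12 libraries (ste12 at 913, 915 and 945 CPM) lay below the lowest wild-type library. Those of ras2 and spt8 overlapped with the wild type. MDH1 (chromosome XI, 279123 to 280127), the mitochondrial malate dehydrogenase, was at 893, 882 and 920.3 CPM in the wild type, 475, 357 and 423 in spt8, 657, 327 and 542 in dig1 and 916, 1046 and 863 in rtg3. The rtg3 libraries enclosed the wild-type values.

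IDP1 (chromosome IV, 334835 to 336121) encodes the mitochondrial NADP-dependent isocitrate dehydrogenase. It was at 266, 293 and 288 CPM in the wild type, 191, 175 and 175 in rtg3, 215, 183 and 189 in ras2, 217, 205 and 210.1 in dig1 and 248, 262 and 258 in spt8. The wild-type libraries lay above those of each of these 4 mutants and of ste12 (215, 252 and 238 CPM).

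Of the 48 comparisons of a gene in a mutant with the wild type, 17 passed at an adjusted p of 0.05 (edgeR quasi-likelihood test, Benjamini-Hochberg adjustment over 5786 genes). All 17 were lower in the mutant. Over all tested genes, calls ran in both directions, and lower calls made up from 1.80% in rim101-531 to 14.9% in ras2. KGD2, FUM1 and IDP1 each fell in 3 mutants, KGD1, LSC2 and MDH1 in 2, and LPD1 and LSC1 in 1. The comparisons share the wild-type libraries.

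**Figure D3:**
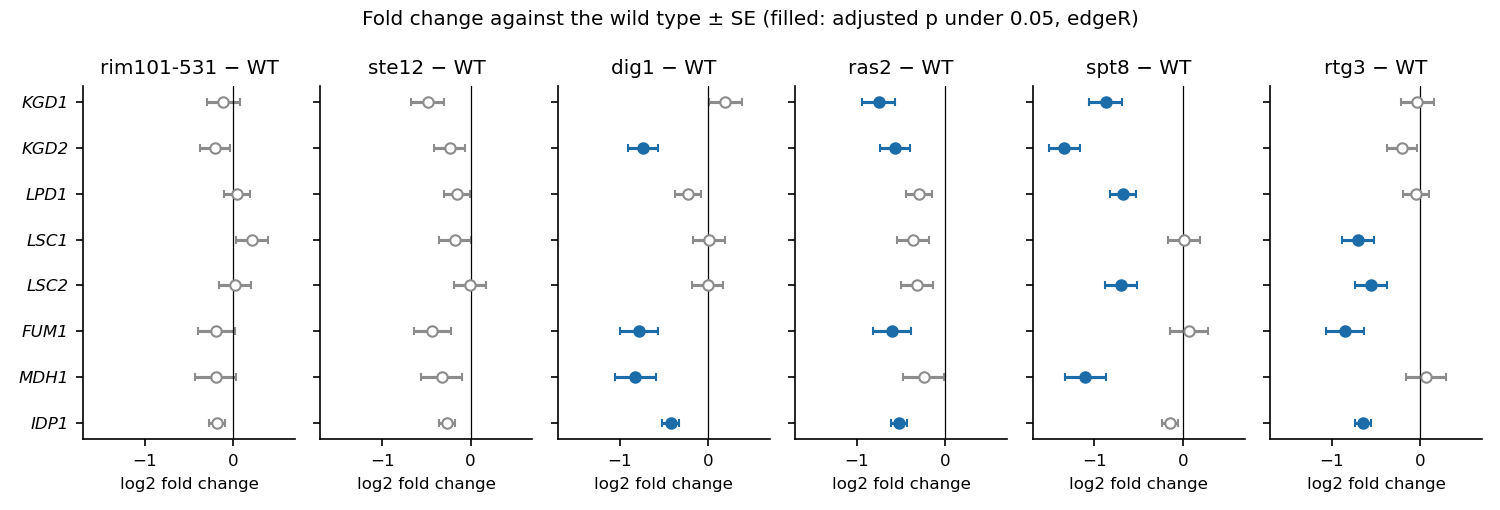
Log2 fold change of each of the 8 genes in each mutant against the wild type, with bars for the standard error of the edgeR fit (3 libraries per group); filled points passed at an adjusted p of 0.05. The genes that fell in spt8 (KGD1, KGD2, LPD1, LSC2, MDH1) and in rtg3 (LSC1, LSC2, FUM1, IDP1) share 1 gene, LSC2.

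In the rtg3 mutant 4 of the 8 genes fell, LSC1, LSC2, FUM1 and IDP1, and no call was made for KGD1, KGD2, LPD1 and MDH1. Whether the 8 genes differ from each other in their response was not tested. IDP1 was 1.56-fold lower (log2 change -0.65 ± 0.09, SE, adjusted p = 4.68e-05), FUM1 1.81-fold lower (-0.86 ± 0.22, adjusted p = 0.00863), LSC1 1.63-fold lower (-0.70 ± 0.18, adjusted p = 0.0102) and LSC2 1.47-fold lower (-0.56 ± 0.18, adjusted p = 0.0345), all by edgeR. The genes of the alpha-ketoglutarate dehydrogenase complex had log2 changes of -0.03 ± 0.19 for KGD1, -0.21 ± 0.17 for KGD2 and -0.05 ± 0.15 for LPD1, and MDH1 had 0.07 ± 0.23. That 4 of 8 fell compares with 11.2% of all tested genes called lower in rtg3, and the median log2 change of the 8 was -0.38 beside 0.00 over all genes. LSC2 lost its call when any 1 of the 6 libraries was left out (adjusted p from 0.0537 to 0.108), LSC1 without rtg3 replicate 3 (-0.65, adjusted p = 0.0507) and FUM1 without wild-type replicate 2 (-0.64, adjusted p = 0.0665), whereas IDP1 kept it. Without wild-type replicate 2 or without rtg3 replicate 3, 2 of the 8 genes were called. With library totals alone in place of TMM factors, which moved the median of all genes by 0.24 on the log2 scale, LSC1 (-0.46, adjusted p = 0.065) and LSC2 (-0.32, adjusted p = 0.204) were not called, and the differences of KGD1, KGD2 and LPD1 turned positive without passing. That scaling changed the split over all genes in rtg3 from 646 lower of 1185 called to 310 lower of 2229.

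The enzymes before this stretch were lower in the same libraries. Of 5 genes of the first steps, 4 fell, with a median log2 change of -1.27 over the 5. CIT1, the mitochondrial citrate synthase, went from 1763, 1827 and 1794 CPM to 748, 870 and 774 (log2 change -1.17 ± 0.19, adjusted p = 0.000211, edgeR). IDH1 (-1.39 ± 0.24, adjusted p = 0.000295) and IDH2 (-1.27 ± 0.20, adjusted p = 0.000183), the subunits of the NAD-dependent isocitrate dehydrogenase, and CIT3, a minor citrate synthase (-4.22 ± 0.18, adjusted p = 1.42e-12), fell as well. ACO1, an aconitase, was at 1318, 1815 and 1415 CPM against 2116, 2044 and 2157 and did not pass (-0.47 ± 0.25, adjusted p = 0.195). The smallest of these 4 falls, in CIT1 (-1.17), had a larger point estimate than the greatest among the 8 late genes, in FUM1 (-0.86), a difference that was not tested.

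Succinate dehydrogenase acts between the ligase and fumarase. Of its 4 subunit genes SDH3 (-1.02 ± 0.16, adjusted p = 0.000163, edgeR) and SDH4 (-1.19 ± 0.18, adjusted p = 9.57e-05), the membrane anchors, fell, while SDH1 (-0.57 ± 0.24, adjusted p = 0.0981) and SDH2 (-0.46 ± 0.20, adjusted p = 0.122) did not pass. SDH1 and SDH2 each passed in 3 of 15 alternatives (lowest adjusted p = 0.00405 and 0.00449), and the difference between the subunits was not tested. The 3 retrograde targets outside the cycle all fell. CIT2 went from 1073, 842 and 1002 CPM to 57.8, 57.3 and 67.1 (-4.00 ± 0.12, adjusted p = 4.05e-15), DLD3, a cytosolic hydroxyglutarate dehydrogenase, changed by -2.20 ± 0.22 (adjusted p = 3.68e-07), and PYC1, a pyruvate carboxylase, by -0.65 ± 0.10 (adjusted p = 8.67e-05). Among 7 mitochondrial carriers of cycle intermediates 3 fell: YHM2, a citrate and oxoglutarate carrier (-1.61 ± 0.13, adjusted p = 2.26e-08), ODC1, an oxodicarboxylate carrier (-1.04 ± 0.13, adjusted p = 8.65e-06) and DIC1, a dicarboxylate carrier (-1.02 ± 0.14, adjusted p = 2.19e-05).

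Some partners of the late enzymes were called in rtg3. KGD4, a small subunit that joins Lpd1 to the alpha-ketoglutarate dehydrogenase complex, had a log2 change of -0.30 ± 0.19 (adjusted p = 0.286, edgeR). Of the 8 genes of the lipoamide complexes 2 fell, beside 11.2% of all tested genes called lower. PDB1, a pyruvate dehydrogenase subunit, had the smaller p of the 2 (-0.67 ± 0.11, adjusted p = 0.000326). MDH2, the cytosolic malate dehydrogenase, was at 0.28 ± 0.24 (adjusted p = 0.423). HAP4, the regulatory subunit of the Hap complex, fell by 0.54 ± 0.09 on the log2 scale (adjusted p = 0.000237). Of the 5 genes HAP1 to HAP5, it was the only one to fall in rtg3, and 1 rose. The part of HAP4 in the other changes was not tested. Of the 4 late genes that fell in rtg3, LSC2, FUM1 and IDP1 held GTCAC in the windows described above and LSC1 did not. KGD1 held 1 match and was not called in rtg3. Among the other genes that fell there, CIT3, CIT2 and DLD3 held GTCAC, whereas CIT1, IDH1, IDH2 and PYC1 did not. Of all windows of the genome, 27.5% held it, and a link between motif and call was not tested.

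**Figure D4:**
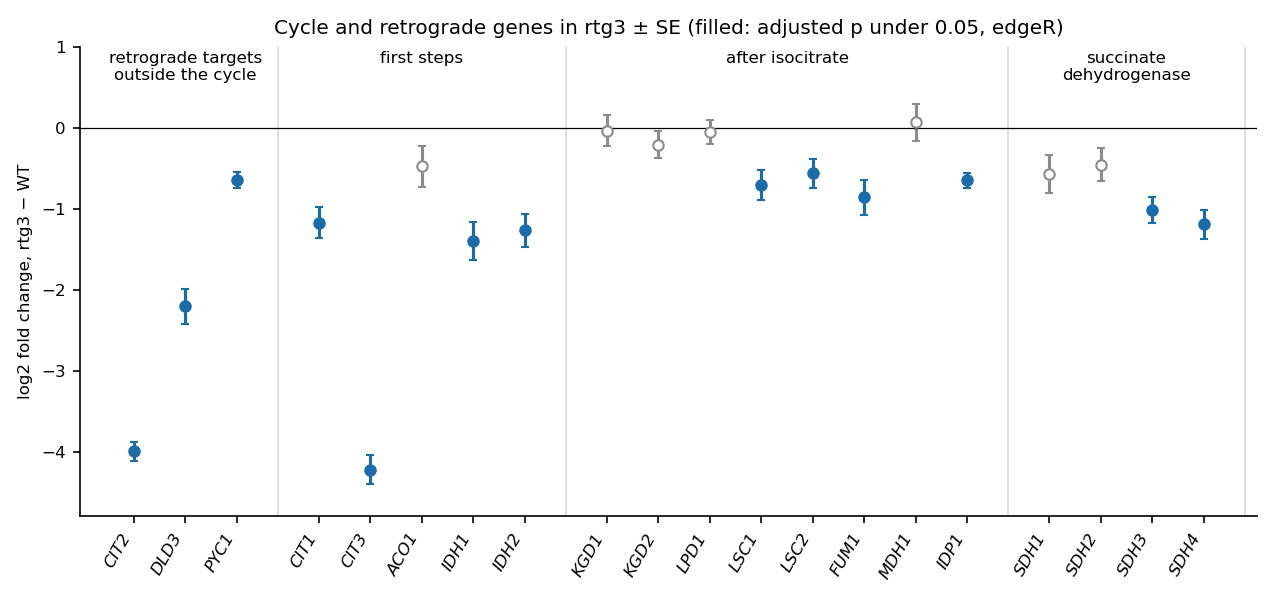
Log2 fold change in rtg3 against the wild type for 3 retrograde targets, the first steps of the cycle, the 8 genes after isocitrate and succinate dehydrogenase, with standard errors of the edgeR fit (3 libraries per group); filled points passed at an adjusted p of 0.05. The 4 called genes of the first steps lie at -1.17 or below and ACO1 lies at -0.47. Among the genes after isocitrate, FUM1, LSC1, IDP1 and LSC2 lie between -0.86 and -0.56. KGD1, KGD2, LPD1 and MDH1 lie between -0.21 and 0.07.

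A separate question is whether the pattern in rtg3 differed from that in the other mutants. Against the mean of the other 5 mutants, LSC1 was lower in rtg3 by 0.64 ± 0.15 on the log2 scale (adjusted p = 0.00239, edgeR), IDP1 by 0.34 ± 0.07 (adjusted p = 0.00153) and FUM1 by 0.47 ± 0.17 (adjusted p = 0.0409). MDH1 (0.61 ± 0.17, adjusted p = 0.00996), KGD2 (0.41 ± 0.13, adjusted p = 0.0184) and KGD1 (0.37 ± 0.14, adjusted p = 0.0456) were higher. LSC2 (-0.36 ± 0.14, adjusted p = 0.0596) and LPD1 (0.21 ± 0.11, adjusted p = 0.147) did not pass. The 6 called genes of 8 compare with 35.3% of all tested genes called in either direction. LSC1 and IDP1 kept their calls when any 1 library was left out. KGD1, KGD2 and FUM1 each lost theirs without any 1 of the 3 rtg3 libraries (KGD1 at adjusted p from 0.121 to 0.124, FUM1 from 0.0681 to 0.145, and KGD2 at adjusted p = 0.0537, 0.0835 and 0.0612 without replicates 1, 2 and 3) and MDH1 without rtg3 replicate 2 (0.53, adjusted p = 0.0711). KGD1 was also not called without replicate 2 or 3 of ste12, spt8, rim101-531 or ras2 (adjusted p from 0.0517 to 0.0593), and FUM1 not without 7 of the other libraries (0.0513 to 0.0551). Leaving out rtg3 replicates 1, 2 and 3 in turn left 3, 2 and 3 calls. With library totals alone, the differences of IDP1 (-0.12, adjusted p = 0.208) and FUM1 (-0.25, adjusted p = 0.233) were not called. The first steps of the cycle were lower in rtg3 in this comparison too, in 4 of 5 genes with a median of -0.80.

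The spt8 mutant, named for a subunit of the SAGA coactivator complex that contacts the TATA-binding protein, had calls in another combination of the genes, with LSC2 in common. KGD1, KGD2, LPD1, LSC2 and MDH1 fell, and LSC1, FUM1 and IDP1 did not pass. KGD2 was 2.53-fold lower (log2 change -1.34 ± 0.17, adjusted p = 1.18e-05, edgeR), MDH1 2.15-fold (-1.10 ± 0.23, adjusted p = 0.00159), KGD1 1.83-fold (-0.87 ± 0.19, adjusted p = 0.00185), LSC2 1.63-fold (-0.70 ± 0.18, adjusted p = 0.00724) and LPD1 1.6-fold (-0.67 ± 0.15, adjusted p = 0.00203). LSC1 and FUM1 were at 0.01 ± 0.18 and 0.07 ± 0.21, and IDP1, whose libraries lay just below the wild type, at -0.14 ± 0.09 (adjusted p = 0.273). Lower calls made up 14.4% of all genes tested in spt8, and the median of the 8 genes was -0.69 beside 0.02 over all genes. All 5 calls held when any 1 of the 6 libraries was left out, and LSC2 was not called with library totals alone (-0.46, adjusted p = 0.0653), a scaling that moved the median of all genes by 0.24 and the split of calls over all genes from 833 lower of 1474 to 480 lower of 2340.

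Several partners of these enzymes were lower in spt8 as well. Of the 8 genes of complexes that share Lpd1 5 fell, beside 14.4% of all tested genes called lower. Among these 5 were KGD4, which fell 2.26-fold (-1.17 ± 0.20, adjusted p = 0.000217, edgeR), and GCV1 (-1.22 ± 0.18, adjusted p = 5.44e-05) and GCV3 (-0.91 ± 0.14, adjusted p = 9.38e-05) of the glycine cleavage system. SDH3 (-0.86 ± 0.16, adjusted p = 0.00057) and SDH4 (-1.21 ± 0.18, adjusted p = 5.51e-05) fell, as did ODC1 (-0.98 ± 0.13, adjusted p = 1.28e-05). MDH2 fell 5.26-fold (-2.39 ± 0.26, adjusted p = 9.36e-07). Not all related genes fell: among the 7 carriers 2 fell and 1 rose in spt8. Among 6 genes of related enzymes outside the mitochondrial cycle, MDH2 included, 2 fell and 1 rose. HAP4 went from 374, 376 and 362 CPM to 165, 153 and 175 (-1.17 ± 0.09, adjusted p = 2.55e-08), with no overlap between the groups; its part in the other changes was not tested. Of 5 genes of the first steps 1 passed, CIT3, which rose (0.57 ± 0.15, adjusted p = 0.0077). The retrograde targets CIT2 (0.39 ± 0.10, adjusted p = 0.00765) and DLD3 (1.48 ± 0.21, adjusted p = 2.48e-05) rose in spt8, where they had fallen in rtg3, and PYC1 fell in both (-0.51 ± 0.10 in spt8, adjusted p = 0.000634). The CIT2 call was lost when the fit held only the spt8 and wild-type libraries (adjusted p = 0.061). Rises of these targets were not particular to spt8: all 3 rose in ste12, and in dig1 2 rose and 1 fell. Of all 5786 genes tested, 641 were called higher in spt8, 276 in ste12 and 464 in dig1.

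In the ras2 mutant, named for a small GTPase that activates the cAMP pathway and the filamentation MAPK pathway, 4 of the 8 genes fell. IDP1 was 1.44-fold lower (-0.53 ± 0.09, adjusted p = 0.000307, edgeR), KGD1 1.69-fold (-0.75 ± 0.19, adjusted p = 0.00623), KGD2 1.48-fold (-0.57 ± 0.17, adjusted p = 0.0204) and FUM1 1.52-fold (-0.60 ± 0.21, adjusted p = 0.0459), the last with libraries that overlapped with the wild type. Lower calls made up 14.9% of all genes tested in ras2, and the median of the 8 genes was -0.45 beside -0.01 over all genes. IDP1 kept its call with any 1 library left out. KGD1 was not called without ras2 replicate 2 (-0.61, adjusted p = 0.0508), and KGD2 and FUM1 were not called without ras2 replicate 2 (adjusted p = 0.102 and 0.223), ras2 replicate 3 (0.0851 and 0.128) or wild-type replicate 3 (0.0617 and 0.089). KGD2 was also not called without wild-type replicate 1 (0.0701), and FUM1 without wild-type replicate 2 (-0.40, adjusted p = 0.24). The count was therefore 1 without ras2 replicate 2, and 2 without ras2 replicate 3 or without wild-type replicate 3.

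Around these genes, further genes of respiratory metabolism were lower in ras2. CIT1 (-0.99 ± 0.19, adjusted p = 0.000859, edgeR) and CIT3 (-2.61 ± 0.16, adjusted p = 2.49e-09) fell, and the other 3 genes of the first steps described here did not pass. SDH3 (-0.66 ± 0.16, adjusted p = 0.00551), SDH4 (-1.16 ± 0.18, adjusted p = 0.000112), KGD4 (-0.83 ± 0.19, adjusted p = 0.00413), MDH2 (-1.61 ± 0.25, adjusted p = 9.82e-05) and the succinate and fumarate carrier gene SFC1 (-1.34 ± 0.18, adjusted p = 2.96e-05) fell. Among 6 genes of related enzymes outside the mitochondrial cycle, MDH2 included, 3 fell and 1 rose in ras2. CIT2 (-0.90 ± 0.10, adjusted p = 4.42e-06) and PYC1 (-0.67 ± 0.10, adjusted p = 5.2e-05) fell as well. DLD3 fell too (-0.64 ± 0.20, adjusted p = 0.0273), with a call lost without either of wild-type replicates 1 and 3 or ras2 replicates 1 and 3 (adjusted p from 0.0625 to 0.125). HAP4 fell by 0.44 ± 0.09 on the log2 scale (adjusted p = 0.00125). Of the 5 genes HAP1 to HAP5, 2 fell in ras2, HAP4 included, and 1 rose.

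In the hyperfilamentous dig1 mutant, named for a repressor of the transcription factor Ste12, 4 of the 8 genes fell: IDP1 (1.34-fold, -0.42 ± 0.09, adjusted p = 0.00272, edgeR), KGD2 (1.67-fold, -0.74 ± 0.17, adjusted p = 0.00508), FUM1 (1.72-fold, -0.78 ± 0.22, adjusted p = 0.0163) and MDH1 (1.77-fold, -0.82 ± 0.23, adjusted p = 0.0193). KGD1 was at 0.19 ± 0.19, LPD1 at -0.23 ± 0.15, LSC1 at 0.01 ± 0.18 and LSC2 at -0.01 ± 0.18, none of which passed. Lower calls made up 7.69% of all genes tested in dig1, and the median of the 8 genes was -0.33 beside -0.01 over all genes. KGD2 and IDP1 kept their calls with any 1 library left out. FUM1 was not called without dig1 replicate 2 (-0.60, adjusted p = 0.0959), dig1 replicate 3 (0.068) or wild-type replicate 2 (-0.57, adjusted p = 0.12), and MDH1 not without dig1 replicate 2 (-0.55, adjusted p = 0.113), dig1 replicate 3 (0.0586) or wild-type replicates 1 and 3 in turn (0.0561 and 0.067), so that 2 genes were called without dig1 replicate 2 or 3. None of the 4 passed when the fit held only the dig1 and wild-type libraries. IDH2 (-0.88 ± 0.20, adjusted p = 0.00457), IDH1 (-0.87 ± 0.23, adjusted p = 0.0135), KGD4 (-0.72 ± 0.20, adjusted p = 0.0143), MDH2 (-1.23 ± 0.25, adjusted p = 0.00136) and HAP4 (-0.49 ± 0.09, adjusted p = 0.000635) were lower in dig1. With only the dig1 and wild-type libraries in the fit, IDH1 (adjusted p = 0.089), MDH2 (0.0504) and HAP4 (0.0711) were not called. The IDH1 call was also lost without wild-type replicate 2 (adjusted p = 0.104) or dig1 replicate 2 (0.0824), and that of KGD4 without wild-type replicate 3 (0.0553), dig1 replicate 2 (0.0865) or dig1 replicate 3 (0.0805). Of the 3 retrograde targets, CIT2 and DLD3 rose in dig1, beside 464 of 5786 genes called higher, and PYC1 fell. Of the 5 genes HAP1 to HAP5, 2 fell in dig1, HAP4 included, and 1 rose.

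In ste12, named for the transcription factor that drives the filamentation programme, and in rim101-531, an allele of the pH-response regulator gene RIM101, 0 of the 8 genes passed by edgeR and 0 by DESeq2. At an unadjusted p under 0.05, edgeR gave 2 genes in ste12 and 0 in rim101-531. The background of lower calls was 5.20% in ste12 and 1.80% in rim101-531. The smallest adjusted p-values in ste12 were those of KGD1 (-0.49 ± 0.19, adjusted p = 0.116) and IDP1 (-0.27 ± 0.09, adjusted p = 0.0759), both with libraries below the wild type throughout, at 921, 698 and 733 CPM and at 215, 252 and 238 CPM. The ste12 libraries of KGD2, FUM1, MDH1 and, narrowly, LPD1 also lay below every wild-type library, without a call. In rim101-531 the libraries of all 8 genes overlapped with the wild type. In ste12 MDH2 fell (-1.30 ± 0.25, adjusted p = 0.00144), and in rim101-531 CIT2 rose (0.84 ± 0.10, adjusted p = 0.000127). The retrograde targets CIT2, DLD3 and PYC1 all rose in ste12, beside 276 of 5786 genes called higher. There, 2 of the 4 succinate dehydrogenase subunit genes and 1 of 5 genes of the first steps fell.

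The balance between subunits of the same enzyme was taken from counts per base within each library, which does not depend on the scaling of libraries. With 3 libraries in each group an exact permutation test cannot go below a two-sided p of 0.10, so these ratios are given as descriptions. LSC1 over LSC2 was 1.57, 1.65 and 1.62 in the wild type and 2.62, 2.65 and 2.67 in spt8. Every spt8 library lay above every library of the other groups, whose means ran from 1.44 ± 0.06 in ste12 to 1.83 ± 0.08 in rim101-531 (SD, n = 3). In rtg3, where both genes fell, the ratio was 1.46 ± 0.04.

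KGD2 over KGD1 was 1.38 ± 0.04 in the wild type and 0.735, 0.737 and 0.698 in dig1, the lowest of any group. It was 0.989 ± 0.104 in spt8, 1.22 ± 0.04 in rtg3, 1.58 ± 0.13 in ras2 and 1.65 ± 0.14 in ste12. LPD1 over KGD1 was 1.11 ± 0.07 in the wild type, 1.09 ± 0.07 in rtg3 and 1.53 ± 0.10 in ras2. LSC1 over KGD1, which sets a ligase subunit gene against a dehydrogenase subunit gene, was 1.83 ± 0.09 in the wild type, 1.15 ± 0.09 in rtg3 and 3.36 ± 0.22 in spt8. The wild type lay between both mutants without overlap. This ratio does not stand for the whole ligase, since LSC2, unlike LSC1, fell in spt8 together with KGD1.

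FUM1 over MDH1 was 0.765, 1.21 and 0.885 in the wild type, 0.502 ± 0.020 in rtg3 and 2.15 ± 0.10 in spt8. IDH1 over KGD1, a ratio of the step before alpha-ketoglutarate to the step after it, was 1.54 ± 0.42 in the wild type and 0.53, 0.729 and 0.542 in rtg3. A low ratio was not particular to rtg3: dig1, at 0.719, 0.787 and 0.727, also lay below every wild-type library and overlapped with rtg3. IDP1 over its cytosolic isozyme gene IDP2 was 0.398 ± 0.009 in the wild type and 0.225 ± 0.005 in rtg3. MDH1 over MDH2 was 0.517 ± 0.089 in the wild type and overlapped with it in rtg3 (0.442 ± 0.087), but was 1.24 ± 0.03 in spt8 and 1.30 ± 0.02 in ras2. The ste12 (1.01 ± 0.08) and dig1 (0.685 ± 0.046) libraries also lay above every wild-type library.

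**Figure D5:**
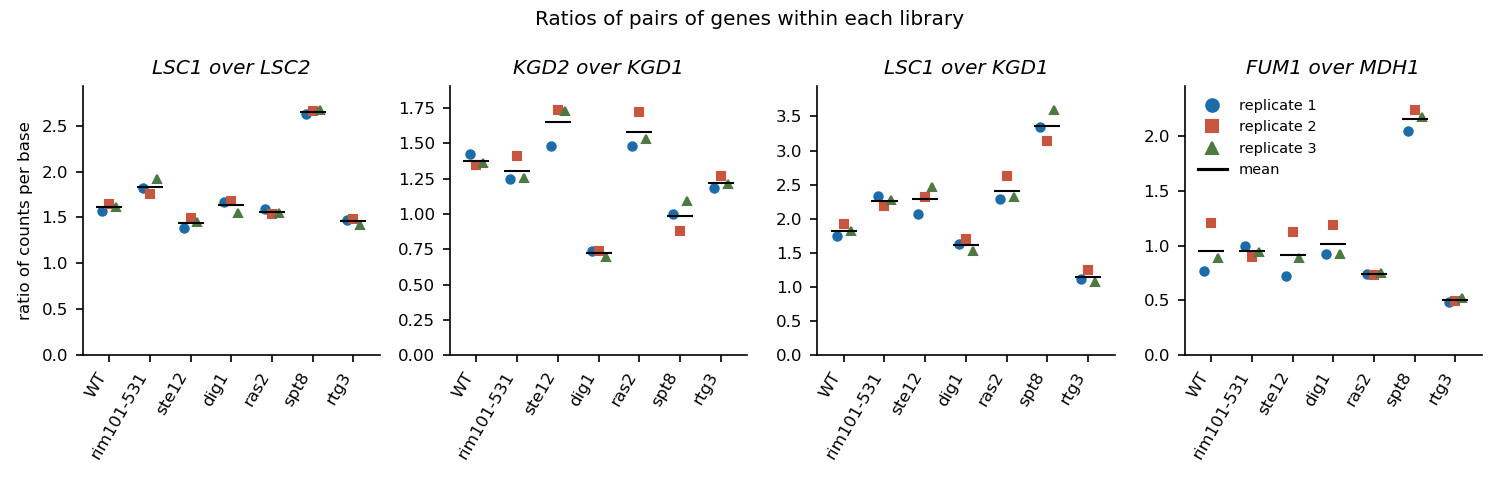
Ratios of counts per base between pairs of genes in each library, on a linear axis from 0, with 1 panel per pair; symbols are the 21 libraries and bars are group means of 3. LSC1 over LSC2 is highest in the 3 spt8 libraries (2.62 to 2.67) and KGD2 over KGD1 is lowest in the 3 dig1 libraries (0.698 to 0.737).

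Across the 21 libraries, which include 3 of each group and so carry the group differences above, the 8 genes did not vary as 1 set. Pearson correlations of log2 CPM were 0.918 between KGD2 and LPD1, 0.898 between KGD2 and MDH1 and 0.866 between LPD1 and MDH1. FUM1 correlated at 0.836 with IDP1 and at 0.724 with LSC1. FUM1 was nearly uncorrelated with KGD1 (-0.05), KGD2 (0.02) and MDH1 (0.10), as was IDP1 with KGD2 (0.04) and MDH1 (-0.08). LSC2 stood between, at 0.754 with LPD1 and 0.651 with LSC1. The genes most like the mean profile of all 8, among 3064 genes with a mean of at least 50 CPM, were ATP2 (Pearson r = 0.946 over 21 libraries) and ATP1 (0.941), subunits of the mitochondrial ATP synthase, COR1 (0.933) and QCR2 (0.920), core subunits of the cytochrome bc1 complex, and ATP5 (0.918), a further ATP synthase subunit.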

How the data were processed

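Each deposited table held 1 library's whole-number counts per gene, made by the authors, with bcl2fastq, TopHat2 2.0.19 and HTSeq 0.6.1 and build R64 named per the submitters' processing notes. Settings and strand were not given in the sources used here. Records assigned to no gene, 40.1% to 47.8% of each table, entered neither library sizes nor tests. The remaining 2388813 to 3987529 counts per library were scaled with TMM factors of 0.893 to 1.16 (edgeR 4.0.16, R 4.3.3). After filterByExpr, 5786 genes were tested with 1 quasi-likelihood fit over all 21 libraries and 1 mean per group, with Benjamini-Hochberg adjustment. Each mutant was compared with the wild type, and rtg3 with the mean of the other 5 mutants. The calculation was tested on simulated data. Alternatives were DESeq2 1.42.0 (test and size factors), library totals alone, no filter, a replicate block, only the libraries compared, and leaving out each library. Leaving out all libraries of 1 replicate number was chosen after seeing the data.

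The 8 genes and all other gene lists were chosen with earlier results of these data known. Named besides them were the first steps, the succinate dehydrogenase subunits, 3 retrograde targets, up to 4 genes by smallest p from each other list, and the 5 genes most like the mean profile. A gene of the first steps is not reported here. Gene and promoter coordinates came from the RefSeq annotation of R64. Every pair of libraries within a group was further apart than counting error allows (chi-square per degree of freedom of 1.93 to 56.9), so none was treated as a repeat.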

Additional observations from a re-analysis of the deposited data

How the results depend on the processing

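Of 23 calls among the 8 genes, none changed sign in any alternative run, and 1, KGD2 in spt8, passed in all of them. Counts with 1 library left out ran from 2 to 4 genes in dig1, 1 to 4 in ras2, 2 to 3 in rtg3 and 2 to 7 for rtg3 against the other mutants. The fit limited to the libraries compared called 0 in dig1 and 1 (KGD1) in ste12. Library totals alone called 1 (IDP1) in ste12, 2 in ras2 and 2 in rtg3. Without all replicate 3 libraries, which leaves 2 per group, 0 genes were called in dig1, ras2, rtg3 and rtg3 against the other mutants, and 1 in spt8.

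The replicate number was not taken to pair the libraries, since same-numbered deviations were not positively correlated throughout. For replicates 1 and 2, correlations between groups other than rtg3 ran from 0.15 to 0.67 and those with rtg3 from -0.41 to -0.22, while for replicate 3 all lay between -0.05 and 0.07. Of 21 libraries, 13 correlated best with their own number. With the replicate block, 1 gene (KGD1) passed in ste12, LSC2 (-0.33) passed in rtg3 against the other mutants, SDH1 (-0.52) and SDH2 (-0.42) passed in rtg3, and 269 of all genes against 178 in rim101-531.

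Over all genes, library totals alone turned 445 lower of 909 calls into 625 of 1014 in dig1, 301 of 577 into 475 of 680 in ste12, 864 of 1462 into 617 of 1431 in ras2, and 938 of 2040 into 443 of 2946 for rtg3 against the other mutants. The fit limited to the libraries compared gave 385 calls in dig1 and 61 in rim101-531. Without all replicate 3 libraries, calls numbered 210 in dig1, 86 in ste12, 374 in spt8, 1 in rim101-531, 224 in ras2, 156 in rtg3 and 532 for rtg3 against the other mutants. Single libraries left out gave 357 (wild-type replicate 3) or 370 (ste12 replicate 3) in ste12, 76 to 94 in rim101-531 (replicate 2 or 3 of either group), 735 or 719 in rtg3 (rtg3 replicate 1 or 3) and 1347 against the other mutants (rtg3 replicate 3).

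Signs changed only for differences that did not pass; the cause was not tested. With DESeq2, log2 differences became 0.017 for LSC2 in dig1, 0.011 for LSC2 in ste12. With DESeq2 size factors in edgeR, log2 differences became 0.017 for LSC2 in dig1, 0.011 for LSC2 in ste12. With library totals alone, log2 differences became -0.053 for LSC1 in dig1, 0.097 for IDP1 in spt8, -0.0094 for LSC2 in rim101-531, 0.21 for KGD1 in rtg3, 0.039 for KGD2 in rtg3, 0.19 for LPD1 in rtg3, 0.0041 for ACO1 in rtg3 against the other mutants. With the replicate block, log2 differences became -0.022 for LSC1 in dig1, -0.0095 for LSC1 in spt8, -0.0076 for LSC2 in rim101-531. With only the libraries compared, log2 differences became 0.045 for LSC2 in dig1, 0.016 for LSC2 in ste12. Without all replicate 1 libraries, log2 differences became -0.21 for LSC1 in dig1, -0.14 for LSC1 in spt8, -0.13 for FUM1 in spt8, -0.17 for LPD1 in rim101-531, -0.0087 for LSC1 in rim101-531, -0.19 for LSC2 in rim101-531, 0.079 for ACO1 in rtg3 against the other mutants. Without all replicate 2 libraries, log2 differences became 0.22 for LSC2 in dig1, 0.094 for LSC2 in ste12, 0.016 for KGD1 in rim101-531, 0.21 for FUM1 in rim101-531, -0.0096 for MDH1 in rtg3. Without all replicate 3 libraries, log2 differences became 0.0098 for LSC2 in ste12, 0.011 for KGD1 in rtg3, 0.034 for LPD1 in rtg3. With 1 library left out, values that crossed 0 ran from -0.15 to 0.21 for LSC1 in dig1, from -0.14 to 0.21 for LSC2 in dig1, from -0.074 to 0.090 for LSC2 in ste12, from -0.11 to 0.16 for LSC1 in spt8, from -0.043 to 0.27 for FUM1 in spt8, from -0.25 to 0.031 for KGD1 in rim101-531, from -0.10 to 0.19 for LPD1 in rim101-531, from -0.15 to 0.16 for LSC2 in rim101-531, from -0.43 to 0.032 for FUM1 in rim101-531, from -0.036 to 0.0051 for KGD1 in rtg3, from -0.11 to 0.012 for LPD1 in rtg3, from -0.013 to 0.13 for MDH1 in rtg3.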
